A study of Mus musculus with 6 samples.

Results

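Transcripts of 6 genes known from microfold cells (M cells) were followed in whole thymus: Gp2, Spib, Sox8, Tnfaip2, Marcksl1 and Anxa5. They were chosen by symbol as M cell genes, with the M cell chemokines left out, and all 6 were found among the 24054 genes of the deposited count table. RNA was sequenced from 3 libraries of mice labelled K5-rtTA:TetO-RANKL and 3 libraries of mice labelled control, described as carrying 1 transgene only. In the double transgenic mice the keratin 5 promoter, active in basal and medullary epithelium, drives the doxycycline-dependent activator rtTA, which turns on a TetO-linked RANKL transgene; RANKL reads therefore come from cells that use this promoter as well as from the native gene. Both groups received doxycycline in food and water. The labels conflict on its timing: one text starts it at age 8 weeks and gives 1 week of treatment, the other starts it at age 9 weeks and gives 2 weeks. The labels used here do not state strain or sex.

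M cells are epithelial cells that lie over lymphoid follicles, in the gut and at other mucosal surfaces, and carry antigens and microbes across to the immune cells beneath. In the mouse intestine they form when RANKL from stromal cells binds its receptor RANK on epithelial precursors and the non-canonical NF-kB pathway is engaged; the transcription factors Spi-B and Sox8 are needed for their maturation, and GP2 is the surface receptor that marks the mature cell. The thymic medulla also holds a small population of epithelial cells with M cell features.

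Levels are given as CPM, reads per 1000000 of a library's scaled total. Each library held between 18254870 and 25357060 reads on genes, and 3 reads, taken as the limit that a count of 0 allows, were worth 0.122 to 0.161 CPM. Tnfsf11, which encodes RANKL, had 3334, 4812 and 2389.7 CPM in RANKL libraries 1, 2 and 3, against 6.01, 6.34 and 8.89 CPM in control libraries 1, 2 and 3. Of 16096 genes tested with edgeR's quasi-likelihood test, 5437 were higher and 4765 lower in RANKL thymus at a Benjamini-Hochberg adjusted p under 0.05. The background for any count of higher genes is thus 33.8%, for lower genes 29.6% and for either direction 63.4%. In whole tissue, fewer cells of a type and less RNA per cell cannot be told apart. A list of 14 transcripts of double-positive thymocytes, the most numerous cells of a normal thymus, fell in all 14, and its summed level was 379.6 to 1514 CPM in RANKL libraries and 13665 to 16136 CPM in control libraries; its part in the values below was not tested.

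Of the 6 M cell genes, 5 were higher in RANKL thymus and none lower, and the same 5 had every RANKL library above every control library. Across all genes tested, every RANKL library was above every control library in 36.1%, and the groups were separate in either direction in 70.1%. The increases were largest for Sox8 and Gp2, which were 28.8-fold and 24.9-fold higher with overlapping 95% intervals, followed by Tnfaip2 at 11.9-fold, Spib at 6.80-fold and Marcksl1 at 2.60-fold. Anxa5 was not called, so the description of the 6 as genes raised with RANKL held for 5 of them at the level of whole thymus. The median log2 fold change was 3.16 over the 6 genes and -0.02 over all genes tested. The 6 genes were chosen with earlier results of these data known, so these figures are not a test.

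**Figure D1:**
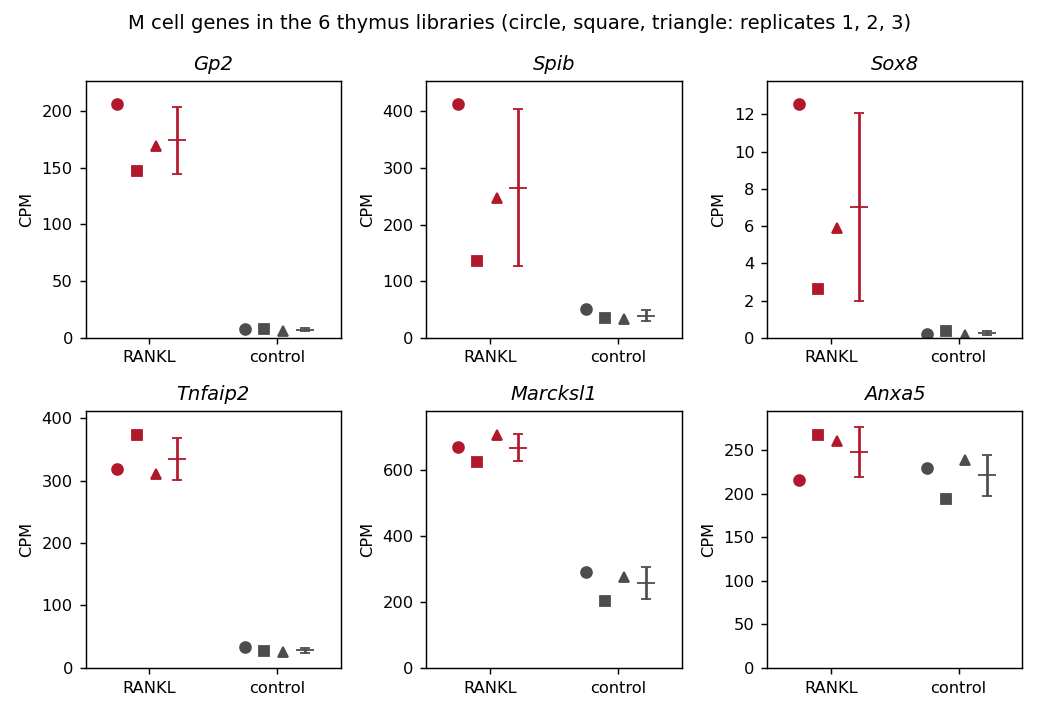
CPM of each M cell gene in the 3 RANKL libraries (red) and the 3 control libraries (grey), with linear axes from 0; circles, squares and triangles are replicates 1, 2 and 3, and the bar at the right of each group is the mean ± SD. Points of the groups are separate for 5 genes and overlap for Anxa5.

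Gp2 encodes glycoprotein 2, a GPI-anchored surface protein with a zona pellucida domain that binds the FimH adhesin of bacterial fimbriae on M cells and is also the main membrane glycoprotein of zymogen granules in pancreatic acinar cells. The gene (Entrez 67133) lies on the minus strand of chromosome 7, 119442537 to 119459272 in GRCm38, with 11 exons in the transcript model that has most. It had 3826, 3626 and 3591 reads in RANKL libraries 1, 2 and 3, against 146, 148 and 119 reads in control libraries 1, 2 and 3. After scaling this was 206, 147 and 169 CPM in RANKL libraries and 7.70, 7.63 and 5.69 CPM in control libraries. The lowest RANKL library was 19.2-fold above the highest control library, the widest gap of the 6 genes, and replicates within each group differed by 1.40-fold at most. The log2 fold change was 4.64 ± 0.22 (SE; edgeR adjusted p = 2.27e-06), higher than that of 97.3% of the genes tested.

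The window before the start of Gp2 is shown because this gene had the widest separation of the groups. It covers chr7:119459286-119459522 (GRCm38.p6, minus strand, from RefSeq), written 5′ to 3′ and ending before the earliest annotated start; capitals mark a TATAAA match, with its first letter 32 bases before the RefSeq start.
Gp2: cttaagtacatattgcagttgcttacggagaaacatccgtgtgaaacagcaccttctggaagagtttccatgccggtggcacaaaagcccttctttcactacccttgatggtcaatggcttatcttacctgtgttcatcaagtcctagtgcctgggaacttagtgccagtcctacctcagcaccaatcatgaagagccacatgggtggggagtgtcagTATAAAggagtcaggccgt
TATAAA occurs on either strand in 12.4% of 32851 RefSeq windows of 250 bases before a start. The Gp2 window held no match to an NF-kB type motif (GGG, any 2 bases, then TTTCC; in 1.41% of windows), GAGGAA (the core bound by PU.1 and Spi-B, in 23.3%) or ACAAAG (a SOX type motif, in 16.5%). Each search, here and for the other genes, covered all 250 bases before the RefSeq start on both strands, whatever stretch is printed. These are letter matches in a short window and say nothing of whether a factor binds.

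Of the 7 other genes with a zona pellucida domain that were examined, 5 passed the low-count filter, and all 5 of these were higher. Umod, which encodes uromodulin and is the nearest relative of Gp2, had 30.3, 35.0 and 19.3 CPM in RANKL libraries, against 0.949, 1.49 and 0.573 CPM in control libraries, a log2 fold change of 4.81 ± 0.39 (edgeR adjusted p = 1.17e-05). Oit3, a liver-type member, was higher by 4.29 ± 0.67 on the log2 scale and Dmbt1, a mucosal scavenger protein, by 3.12 ± 0.66. Tecta and Zpld1 were not tested because of low counts. Oit3 had 4, 3 and 0 reads in control libraries 1, 2 and 3, so it passed the filter only through its RANKL libraries. A gene that enters in this way can be called higher or not called, but hardly lower. The count of 5 higher among 5 tested was therefore partly set by the filter.

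Because Gp2 is also an acinar gene, 24 pancreatic acinar transcripts were read beside it. Only 10 passed the low-count filter, of which 5 were higher and none lower. Without a filter 12 were higher, and leaving out RANKL replicate 2, control replicate 1 or control replicate 3 gave 10, 11 and 9. Cel, the bile salt-stimulated lipase, had 11.6, 5.33 and 9.10 CPM in RANKL libraries and 0.369, 0.309 and 0.334 CPM in control libraries. With 7, 6 and 7 reads in control libraries 1, 2 and 3, Cel passed the filter only through its RANKL libraries. The lack of lower calls among the acinar genes tested was therefore partly set by the filter. Ctrb1, a chymotrypsinogen, averaged 11.6 ± 5.34 CPM in RANKL libraries and 0.849 ± 0.610 CPM in control libraries (SD, n = 3 each). The summed level of the list was 28.1 to 53.9 CPM in RANKL libraries and 12.2 to 13.5 CPM in control libraries. This was below the level of Gp2 alone in every RANKL library and above it in every control library. Cel rose 25.2-fold and Ctrb1 13.6-fold, beside 24.9-fold for Gp2. Amy2a5, an amylase, had 0 reads in all libraries, and Cpa1, carboxypeptidase A1, and Amy2b had at most 0.0538 CPM in any. The part of cells with acinar transcripts in the Gp2 value was not tested.

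Spib encodes Spi-B, an ETS family transcription factor needed for M cell maturation in the mouse and also used by B cells, plasmacytoid dendritic cells and medullary thymic epithelium. The gene (Entrez 272382) lies on the minus strand of chromosome 7, 44525995 to 44532087. It had 412, 136 and 247 CPM in RANKL libraries 1, 2 and 3, against 50.1, 34.2 and 32.7 CPM in control libraries 1, 2 and 3. RANKL library 1 was 3.02-fold above RANKL library 2, yet the lowest RANKL library was still 2.72-fold above the highest control. The log2 fold change was 2.76 ± 0.37 (edgeR adjusted p = 1.77e-04), and 89.3% of the genes tested had a lower one.

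The Spib window covers chr7:44532088-44532321 (GRCm38.p6, minus strand, from RefSeq) and is given, with that of Sox8 further on, as the sequence before the start of the factors linked to M cell maturation. None of the 4 motifs was found in it on either strand, so it has no capitals. Only the exact letters given above were searched. Looser forms of the NF-kB type motif were not searched and may be present.
Spib: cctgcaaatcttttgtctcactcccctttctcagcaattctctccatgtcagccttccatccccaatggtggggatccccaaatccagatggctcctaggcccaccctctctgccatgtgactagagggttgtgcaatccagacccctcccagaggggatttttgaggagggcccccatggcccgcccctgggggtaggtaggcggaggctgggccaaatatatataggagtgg

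Spi-B belongs with PU.1 and Spi-C to the Spi subfamily of ETS factors. Spi1, which encodes PU.1 and is used by myeloid cells, was higher by 2.01 ± 0.20 on the log2 scale, with 94.9 ± 11.6 CPM in RANKL libraries and 23.6 ± 5.04 CPM in control libraries (edgeR adjusted p = 3.27e-05). Spic, a factor of splenic red pulp macrophages, was not called at -0.64 ± 0.32, but was called lower without RANKL replicate 3. The epithelial ETS factors Ehf, Elf3, Elf5 and Spdef were all higher, so 5 of the 6 relatives of Spib examined rose. Across all genes tested 33.8% were higher. Elf3 had 129 ± 33.7 CPM in RANKL libraries and 7.55 ± 1.67 CPM in control libraries. With 9, 2 and 6 reads in control libraries 1, 2 and 3, Spdef passed the low-count filter only through its RANKL libraries. The count of 5 was therefore partly set by the filter.

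Markers of other cells that use Spib moved unevenly. Of 15 B cell transcripts, 5 were higher, none lower and 10 not called, with a median log2 fold change of 0.07. Across all genes tested 33.8% were higher and 29.6% lower, so the count of higher ones was near that share. The defining B cell markers Cd79a and Pax5 had log2 fold changes of -0.34 and 0.20 and were not called (edgeR adjusted p = 0.349 and 0.713). Ms4a1, which encodes CD20, was not called either, with 10.2 ± 5.92 CPM in RANKL libraries and 20.2 ± 1.66 CPM in control libraries (edgeR adjusted p = 0.0616). Cd79a had 22.7, 11.8 and 30.8 CPM in RANKL libraries, against 28.7, 25.3 and 28.4 CPM in control libraries, so the groups overlapped. The members that rose were Blnk, an adaptor of the B cell receptor that macrophages also use, Fcrla, Fcer2a, Cr2 and Ebf1. Blnk had 162 ± 34.2 CPM in RANKL libraries and 18.5 ± 3.23 CPM in control libraries. For Cr2 the groups overlapped, at 8.42 CPM in RANKL library 2 and 8.70 CPM in control library 1. With all 6 libraries, 1 of the 15 was called lower by DESeq2, by limma-voom and by edgeR with no low-count filter; 1 was called lower without RANKL replicate 1 and 2 without RANKL replicate 3. Plasmacytoid dendritic cell markers were higher in 9 of 12 and lower in 2, with a median of 0.91. Under the test against a 1.5-fold change 5 were higher. The summed level of the list overlapped between groups, at 1140 to 1292 CPM in RANKL libraries and 1286 to 1491 CPM in control libraries. Siglech, a lectin of plasmacytoid dendritic cells, rose 1.84-fold. Ccr9, which thymocytes also carry, was 17.9-fold lower, with 48.6 ± 35.8 CPM in RANKL libraries and 871 ± 81.8 CPM in control libraries. It made up most of the control sum. Ly6d, also on the list of medullary epithelial markers, had 530 ± 37.8 CPM in RANKL libraries and 178 ± 34.0 CPM in control libraries. Both genes weigh heavily in the sums, which therefore do not measure plasmacytoid dendritic cells alone. The part of these cells in the Spib value was not tested.

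Sox8 encodes a SoxE transcription factor that acts with Spi-B in M cell maturation in the mouse gut and is otherwise known from glia, gonad and other tissues. The gene (Entrez 20681) lies on the minus strand of chromosome 17, 25565893 to 25570686. It was the least abundant of the 6, with 233, 65 and 125 reads in RANKL libraries 1, 2 and 3, against 4, 7 and 3 reads in control libraries 1, 2 and 3. This was 12.5, 2.64 and 5.89 CPM in RANKL libraries and 0.211, 0.361 and 0.143 CPM in control libraries, the control values being close to the floor. Sox8 thus passed the low-count filter only through its RANKL libraries. It was also called higher with no such filter, at a log2 fold change of 4.75 ± 0.63. The groups did not overlap, but RANKL library 1 held 4.75-fold the level of RANKL library 2.

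The log2 fold change of Sox8 was 4.85 ± 0.68 (edgeR adjusted p = 2.18e-04), with a 95% interval of 10.1-fold to 82.4-fold. The ratio of the summed reads, 423 in RANKL against 14 in control libraries, was 27.8 with a counting interval of 16.4 to 51.3 (Clopper-Pearson, 95%, counting error only). Without RANKL replicate 1 the log2 fold change was 4.17, still called. An annotated antisense RNA, 2810468N07Rik, shares 329 of the 3118 exonic bases of Sox8. The strand setting of the counting is not stated, so reads within the shared bases cannot be assigned to either. The antisense RNA, counted in a row of its own, had 72, 26 and 58 reads in RANKL libraries and 6, 7 and 11 reads in control libraries.

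The Sox8 window covers chr17:25570687-25570936 (GRCm38.p6, minus strand, from RefSeq), and it too held none of the 4 motifs.
Sox8: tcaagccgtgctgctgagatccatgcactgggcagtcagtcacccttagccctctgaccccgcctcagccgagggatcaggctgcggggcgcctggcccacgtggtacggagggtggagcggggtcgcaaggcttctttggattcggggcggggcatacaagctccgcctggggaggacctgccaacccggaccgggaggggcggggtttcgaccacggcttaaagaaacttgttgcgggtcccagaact

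The other SoxE genes rose as well. Sox9, a factor of many epithelia and of cartilage, had 48.4, 40.5 and 38.2 CPM in RANKL libraries, against 12.7, 10.2 and 6.59 CPM in control libraries, a log2 fold change of 2.11 ± 0.25. Sox10, the glial SoxE factor, had 1.90 ± 0.682 CPM in RANKL libraries and 0.242 ± 0.247 CPM in control libraries. With 10, 2 and 2 reads in control libraries 1, 2 and 3, Sox10 passed the low-count filter only through its RANKL libraries. It could hardly have been called lower. Of 11 glial transcripts tested, 5 were higher, 1 lower and 5 not called, and the summed level of the list overlapped between groups, at 194 to 259.8 CPM in RANKL libraries and 188 to 273 CPM in control libraries. Among them Erbb3, a neuregulin receptor that epithelium also makes, rose 12.1-fold.

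Tnfaip2 encodes the M-Sec protein, an exocyst-related factor that drives tunnelling nanotubes and is abundant in M cells; monocytes and endothelium make it too. The gene (Entrez 21928) lies on the plus strand of chromosome 12, 111442450 to 111455018. It had 319, 374 and 311 CPM in RANKL libraries 1, 2 and 3, against 33.0, 26.4 and 25.3 CPM in control libraries 1, 2 and 3. The groups were 9.44-fold apart at their nearest points, and RANKL libraries differed by only 1.20-fold. The log2 fold change was 3.57 ± 0.19 (edgeR adjusted p = 3.64e-06). A predicted antisense gene shares 314 exonic bases with Tnfaip2 and has no row of its own in the table, so its reads may be included.

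Of 3 relatives of Tnfaip2 tested, 1 was higher, 1 lower and 1 not called. Exoc3, the exocyst subunit, was lower by a log2 fold change of -0.49 ± 0.14, with 64.0 ± 1.15 CPM in RANKL libraries and 90.0 ± 6.95 CPM in control libraries; this call was lost without RANKL replicate 3, at a threshold of 0.01 and against a 1.5-fold change. Exoc3l4 rose by 1.18 ± 0.21 and Exoc3l was not called, at -0.37. Markers of other cells that make Tnfaip2 were read beside it. Macrophage and monocyte markers were higher in 14 of 15 with a median of 1.67, and their summed level was 3621 to 4801 CPM in RANKL libraries and 1392 to 1753 CPM in control libraries. Fcgr1, an IgG receptor, rose 8.70-fold and Emr1, which encodes F4/80, 3.81-fold. Endothelial markers were higher in 9 of 12, with a median of 1.21; Plvap rose 2.90-fold and Pecam1 was not called, at -0.09. The part of these cells in the Tnfaip2 value was not tested.

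Marcksl1 encodes MARCKS-like 1, a membrane-bound, actin-regulating protein and substrate of protein kinase C that is raised in M cells. The gene (Entrez 17357) lies on the plus strand of chromosome 4, 129513581 to 129515981, and has 2 exons. It had 669, 626 and 708 CPM in RANKL libraries 1, 2 and 3, against 292, 202 and 277 CPM in control libraries 1, 2 and 3. The groups were 2.14-fold apart at their nearest points. The log2 fold change was 1.38 ± 0.19 (edgeR adjusted p = 1.95e-04), and it passed the test against a 1.5-fold change (adjusted p = 0.00127). Its relative Marcks rose by 0.96 ± 0.19, with 346 ± 47.2 CPM in RANKL libraries and 178 ± 33.6 CPM in control libraries.

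The Marcksl1 window, chr4:129513331-129513580 (GRCm38.p6, plus strand, from RefSeq), is shown because it held a GAGGAA match. Capitals mark GAGGAA on the strand of the gene, with its first letter 62 bases before the start. The windows of the other 5 genes held none of the NF-kB, GAGGAA and ACAAAG motifs. For Tnfaip2 only 39 of the 250 bases searched lie before the earliest annotated start, so little of that search covered sequence upstream of it.
Marcksl1: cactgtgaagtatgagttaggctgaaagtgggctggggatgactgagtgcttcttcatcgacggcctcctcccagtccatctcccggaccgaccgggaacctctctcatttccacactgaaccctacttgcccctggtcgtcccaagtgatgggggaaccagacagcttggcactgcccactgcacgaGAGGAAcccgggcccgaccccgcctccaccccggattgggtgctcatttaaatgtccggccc

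Anxa5 encodes annexin A5, a calcium-dependent phosphatidylserine-binding protein made by many cell types and reported as raised in gut M cells. The gene (Entrez 11747) lies on the minus strand of chromosome 3, 36448923 to 36475887, with 13 exons in the transcript model that has most. It had 216, 268 and 260.2 CPM in RANKL libraries 1, 2 and 3, against 229.7, 194 and 239 CPM in control libraries 1, 2 and 3, so the groups overlapped. The log2 fold change was 0.17 ± 0.17 (edgeR adjusted p = 0.398). Its 95% interval ran from 0.868-fold to 1.45-fold, which leaves out a change of the size seen for the other 5 genes but not a smaller one.

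Other annexins, a family of calcium-dependent membrane-binding proteins, were mostly higher, in 8 of 11 with a median log2 fold change of 2.59. Anxa1, which limits inflammation and is made by epithelium and neutrophils, had 2009, 5216 and 1818 CPM in RANKL libraries and 52.7, 87.8 and 78.6 CPM in control libraries. Anxa8, an annexin of stratified epithelium, rose 19.8-fold and Anxa4 4.52-fold. Anxa2, Anxa6 and Anxa11 were not called, at 0.40, -0.11 and -0.03, as Anxa5 was not.

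**Figure D2:**
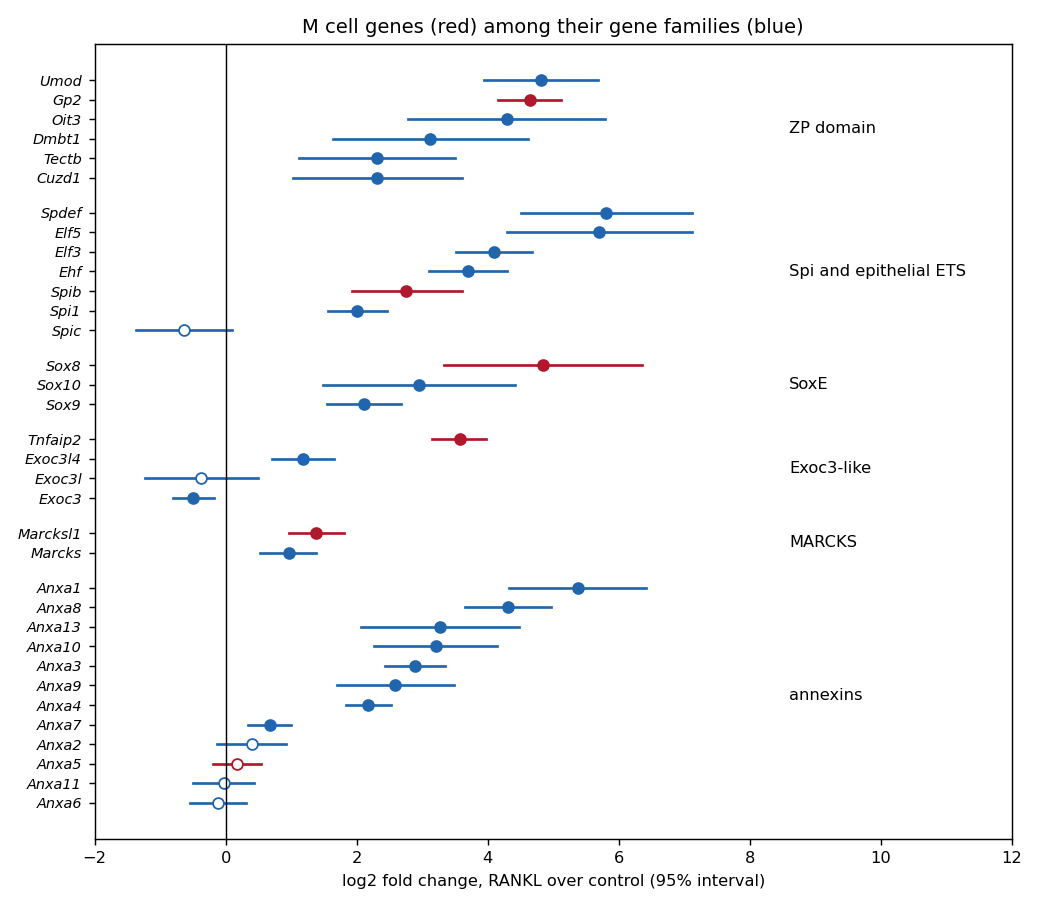
Log2 fold changes, RANKL over control, with 95% intervals, for the tested members of each gene family, with the M cell gene in red and its relatives in blue; filled points were called by edgeR and open points were not. Anxa5 sits among Anxa2, Anxa6 and Anxa11 near 0, and Tnfaip2 stands at 3.57 while Exoc3 stands at -0.49.

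Levels of different genes were compared per kilobase of annotated exon. In RANKL libraries Marcksl1 was the most abundant at 416 ± 25.6 CPM per kilobase, followed by Anxa5 at 139 ± 15.9, Spib at 92.4 ± 48.4, Gp2 at 87.2 ± 14.8, Tnfaip2 at 67.1 ± 6.86 and Sox8 at 2.25 ± 1.62. Spib ran from 47.5 to 144 CPM per kilobase over the 3 libraries, a range that took in all values of Gp2 and Tnfaip2, and the lowest Gp2 value, 73.8, was under the highest Tnfaip2 value, 75.0, so these neighbours in the order did not differ beyond their spread. Spib at its highest also exceeded Anxa5, which had 121 CPM per kilobase in the same library. In control libraries the order was Marcksl1 at 160.1 ± 30.0, Anxa5 at 124 ± 13.3, Spib at 13.6 ± 3.37, Tnfaip2 at 5.66 ± 0.830, Gp2 at 3.51 ± 0.571 and Sox8 at 0.0764 ± 0.0357 CPM per kilobase. Gp2 was below Tnfaip2 in every control library, while Marcksl1 and Anxa5 overlapped there, at 126 to 182 and 109 to 134 CPM per kilobase.

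The 3 RANKL libraries did not rank the 6 genes alike. Gp2, Spib and Sox8 were highest in library 1 and lowest in library 2. So was Tnfrsf11a, which encodes the RANKL receptor RANK, at 98.7, 48.2 and 71.2 CPM in libraries 1, 2 and 3. Of the acinar genes called higher, Cel and Ctrb1 had this order too, while Reg1, Zg16 and Try5 were highest in library 3. The share of all genes with this order was not counted, so it is not shown to be particular to M cell genes. RANKL library 1 also differed from libraries 2 and 3 in its title-number range, and the part of that in the order was not tested. Sox8 ran from 37.6% to 179% of its RANKL mean and Spib from 51.4% to 156%. Tnfaip2 was highest in library 2 and Marcksl1 in library 3, and both stayed between 92.9% and 112% of their means. Tnfsf11 itself was highest in library 2, at 137% of its mean, and Aire, the regulator of tissue-restricted genes in medullary epithelium, in library 3, at 157%.

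**Figure D3:**
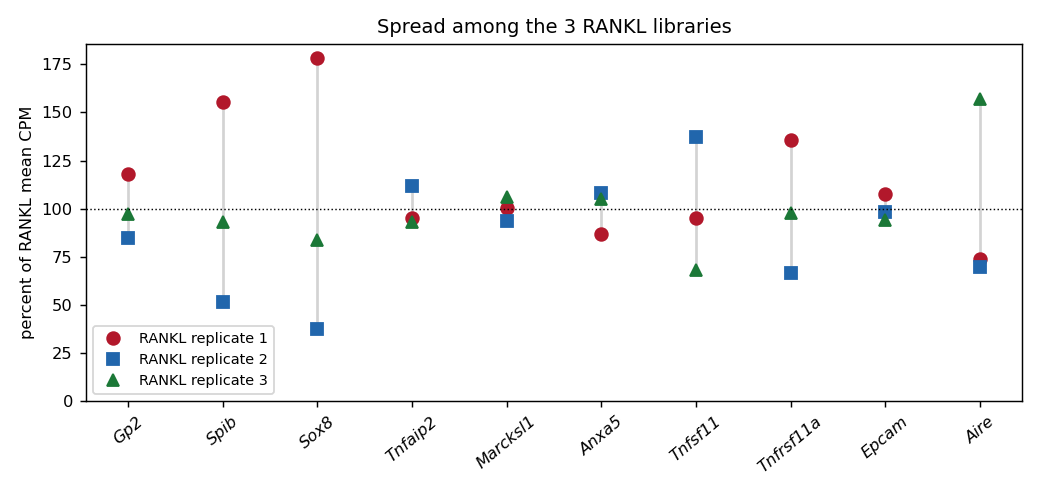
Each RANKL library's CPM as a percent of the mean of the 3 RANKL libraries, for the 6 M cell genes and for Tnfsf11, Tnfrsf11a, Epcam and Aire. Replicate 1 is above replicate 2 for Gp2, Spib, Sox8, Marcksl1, Tnfrsf11a, Epcam and Aire, and the reverse holds for Tnfaip2, Anxa5 and Tnfsf11.

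To set each gene beside an epithelial transcript, each was read against Epcam in the same library, although several are also made by other cells. Epcam encodes an adhesion molecule of many epithelia, and its level need not follow the amount of all epithelium. Of 15 listed markers of medullary epithelium, 14 were tested and all 14 were higher, while Ccl21a had 0 reads in all libraries. The summed level of the list was 10405 to 12561 CPM in RANKL libraries and 2455 to 2874 CPM in control libraries. It includes H2-Aa, Ctss and Cd80, which macrophages and dendritic cells also make, and the part of those cells in the sum was not tested. Of 12 cortical epithelial markers, 2 were higher and 8 lower; without RANKL replicate 1 or 3 the count of higher ones was 1, and without control replicate 2 or 3, at a threshold of 0.01 or against a 1.5-fold change it was 0. Epcam itself had 566, 519 and 496 CPM in RANKL libraries, against 46.8, 47.7 and 45.6 CPM in control libraries, an 11.3-fold rise. There were 36.4, 28.4 and 34.1 Gp2 reads per 100 Epcam reads in RANKL libraries, against 16.4, 16.0 and 12.5 in control libraries, without overlap (log2 difference 1.14). With 3 libraries a group, an exact two-sided permutation test cannot give a p under 0.10, and Gp2, Marcksl1 and Anxa5 each gave that smallest p. Per 100 Epcam reads there were 118, 121 and 143 Marcksl1 reads in RANKL libraries, against 624, 424 and 607 in control libraries. For Anxa5 the values were 38.1, 51.6 and 52.5 in RANKL libraries and 491, 407 and 523 in control libraries.

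The ratios of the remaining 3 genes to Epcam overlapped between groups. Tnfaip2 had 63.7 ± 7.89 reads per 100 Epcam reads in RANKL libraries and 60.4 ± 8.64 in control libraries (SD, n = 3 each; exact permutation p = 0.50). Spib had 49.6 ± 23.3 in RANKL libraries and 83.5 ± 20.5 in control libraries (exact permutation p = 0.30), and Sox8 had 1.30 ± 0.859 in RANKL libraries and 0.507 ± 0.227 in control libraries (exact permutation p = 0.20). The divisor decided the sign for Spib and Marcksl1. Against Krt5, a basal keratin that rose 6.02-fold, the log2 differences of Spib and Marcksl1 were 0.06 and -1.20, and against Krt8, a simple epithelial keratin that rose 1.43-fold, they were 2.13 and 0.88.

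**Figure D4:**
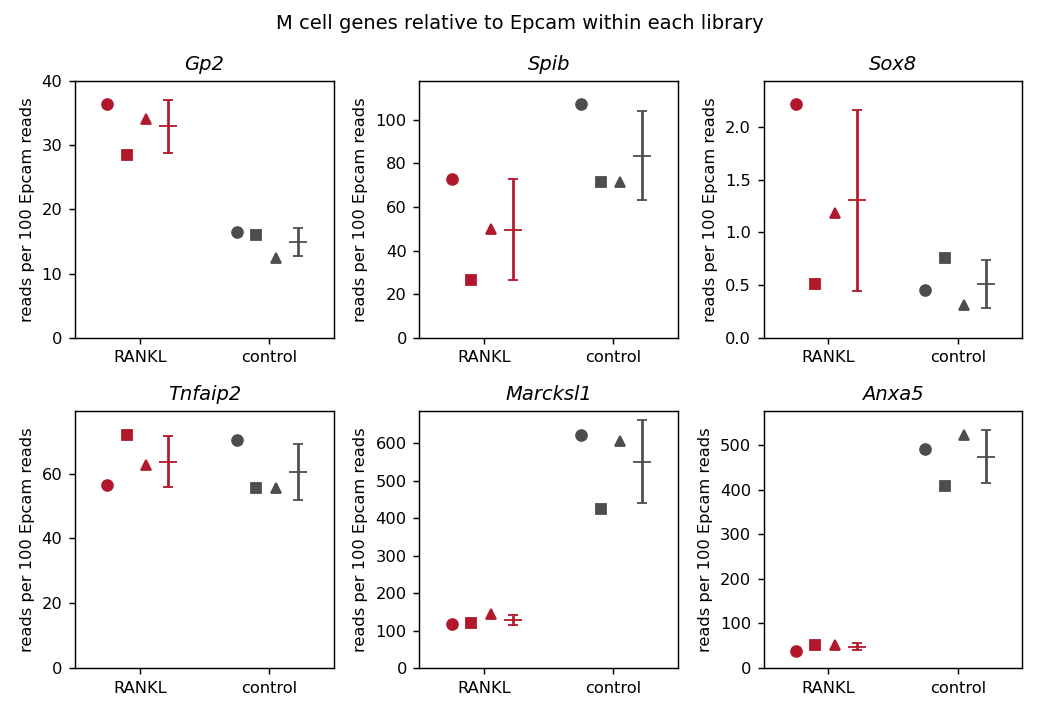
Reads of each M cell gene per 100 Epcam reads in the same library, in RANKL (red) and control (grey) libraries, with linear axes from 0; symbols are replicates 1, 2 and 3 and bars are mean ± SD. Gp2 lies higher in all 3 RANKL libraries, Marcksl1 and Anxa5 lie lower, and Spib, Sox8 and Tnfaip2 overlap.

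A further 16 genes linked to M cells in the gut, chemokines left out, were all higher in RANKL thymus, with a median log2 fold change of 2.34. The background was 33.8% higher. The list was chosen with earlier results of these data known, so its count beside that background is not a test. It includes Tnfrsf11a, Tnfrsf11b, Nfkb2 and Relb, which belong to the RANKL pathway more widely. Several of them, such as Aif1, C5ar1, S100a4 and Pglyrp1, are also made by macrophages or neutrophils. Neutrophil markers were higher in 11 of 11 tested, with a summed level of 2971 to 5990.2 CPM in RANKL libraries and 45.1 to 87.9 CPM in control libraries, and the part of those cells was not tested. Among receptors, Tnfrsf11b, the soluble decoy for RANKL that limits M cell numbers in the mouse, had 438 ± 68.1 CPM in RANKL libraries and 5.63 ± 1.73 CPM in control libraries, a log2 fold change of 6.28 ± 0.28 (edgeR adjusted p = 1.77e-06). Tnfrsf11a rose 6.71-fold. Of the non-canonical NF-kB pair, Nfkb2 rose by 1.76 ± 0.20 on the log2 scale and Relb by 1.48 ± 0.20. Pglyrp1, a peptidoglycan-binding protein, rose 14.3-fold, Clu, the chaperone clusterin, 9.81-fold and Ctsh, a lysosomal protease, 6.08-fold. The smallest increases were in Itgb1, the integrin beta 1 chain, and Aif1, at 0.93 ± 0.18 and 0.80 ± 0.23.

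**Figure D5:**
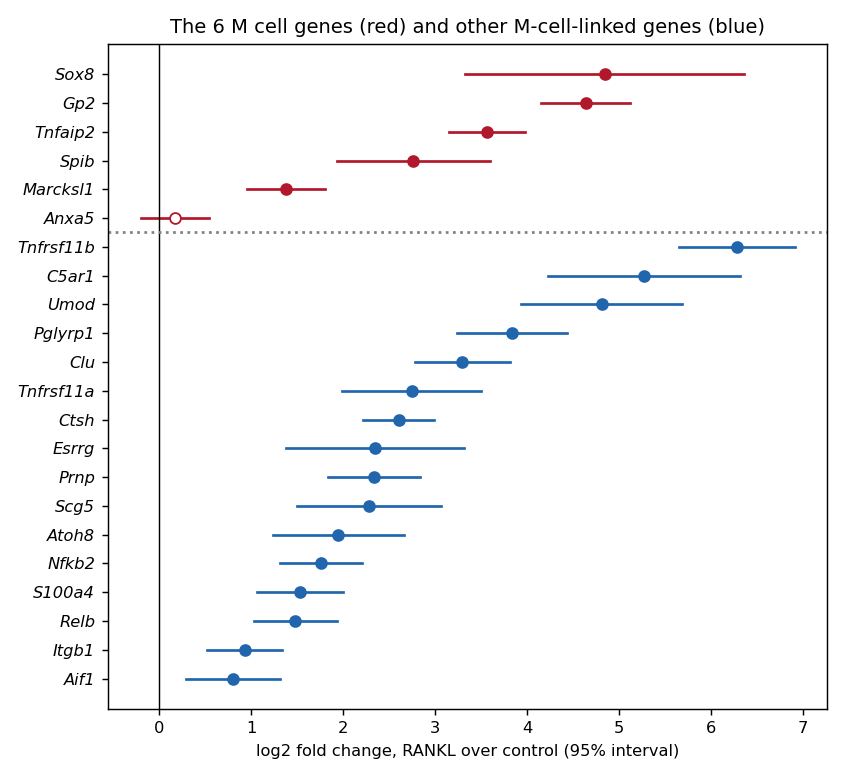
Log2 fold changes, RANKL over control, with 95% intervals, for the 6 M cell genes (red, above the dotted line) and 16 other genes linked to M cells (blue); filled points were called by edgeR and the open point, Anxa5, was not. Intervals of all genes except Anxa5 lie to the right of 0.

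The genes nearest to each M cell gene in profile were sought among 13280 genes whose mean log2 CPM reached 1, by the root mean square difference of log2 CPM after removing each gene's mean over the 6 libraries. A prior of 0.5 CPM was added, which narrows the changes of scarce genes. Gp2 was nearest to Foxa1, an endoderm transcription factor, Has2, a hyaluronan synthase, and Lbp, a lipopolysaccharide-binding protein, at differences of 0.11, 0.17 and 0.26. Spib was nearest to Igfals, Pde1c and Dpp10, at 0.12, 0.14 and 0.14. The profile of Tnfaip2 was within 0.06 to 0.08 of Cystm1, Tfap2c, an epithelial transcription factor, and Crb3, an apical polarity protein. Sox8 had no near match, the nearest being Sec1 at 0.27, Bbox1 at 0.28 and Postn at 0.33. Marcksl1 was nearest to Alas1, Vim, which encodes vimentin, and Dusp18, at 0.07 to 0.10, and Anxa5 to Ubap1, Tfg and Hspa9, at 0.05 to 0.06. The groups were separate in 70.1% of all genes tested, and likeness over 6 libraries says nothing of shared function or control.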

How the data were processed

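The values used are raw counts of reads per gene, as the authors deposited them for 6 thymus libraries. Per the labels' protocols, RNA was isolated with TRIzol, cleaned on a kit column and made into strand-marking mRNA libraries; STAR and mm10 are named per the submitters' processing notes. Which counter, strand setting and annotation were used is not given in those notes. Nothing says that the libraries are from separate animals, and p-values cover only the spread among these samples. Libraries of a group differed beyond counting noise (chi-square over its degrees of freedom, 33.7 to 72.0). Replicate numbers follow accession order and pair nothing.

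Genes kept by filterByExpr were scaled by TMM factors and tested across the whole table by the robust quasi-likelihood method of edgeR 4.0.16 (R 4.3.3; two-sided, no covariates), with Benjamini-Hochberg adjustment over 16096 genes. Standard errors came from the F statistic. The filter can keep a gene that is scarce in control libraries through its RANKL libraries alone, or the reverse. Such a gene can hardly be called in the opposite direction. The code was tested on simulated counts. Exon lengths and overlaps came from GENCODE M21, coordinates and promoters from RefSeq, both of GRCm38, the assembly of mm10. A planned comparison of protein sequences was not made.

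The 6 genes and 17 other lists were chosen with earlier results of these data known. Genes named within lists are up to 4 of smallest p plus a fixed set taken whatever its outcome; other list members were named after their values were seen, and the TATAAA motif was added after the windows were seen. Alternatives were other scaling factors and filters, non-robust fitting, blocking by sample title number, DESeq2 1.42.0, limma-voom (limma 3.58.1) plain and with quality weights, a threshold of 0.01, a test against a 1.5-fold change, each library left out, and Krt5 or Krt8 in place of Epcam. The read floor and the counting interval cover counting error alone.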

Additional observations from a re-analysis of the deposited data

How the results depend on the processing

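Across 18 alternatives for each gene, Gp2, Spib, Sox8, Tnfaip2 and Marcksl1 remained called higher and Anxa5 remained uncalled. Their log2 fold changes ranged from 4.49 to 4.77 for Gp2, 2.34 to 3.09 for Spib, 4.17 to 5.40 for Sox8, 3.48 to 3.67 for Tnfaip2, 1.20 to 1.51 for Marcksl1 and 0.04 to 0.30 for Anxa5. With 1 library left out, 5149 to 5549 genes were higher and 3902 to 4624 lower; against a 1.5-fold change 2654 were lower. Upper-quartile factors moved the median of all genes to 0.08 and the share of higher genes among those called to 58.3%. No paired analysis was possible because the labels give no shared replicate numbers. A block for the title-number range changed no call of the 6 genes. Control library 2 was alone in its range, so it did not inform the group difference in that fit. Divided by Krt5 in place of Epcam, the log2 ratio differences were 2.04 for Gp2, 0.06 for Spib, 2.12 for Sox8, 0.98 for Tnfaip2, -1.20 for Marcksl1 and -2.43 for Anxa5. Divided by Krt8 they were 4.12 for Gp2, 2.13 for Spib, 4.19 for Sox8, 3.06 for Tnfaip2, 0.88 for Marcksl1 and -0.35 for Anxa5. Of the counts of called genes in lists under an alternative, 588 were within 1.5 times the reported count, 11 above and 13 below that range. Sox8, with 14 control reads in all, is the gene whose size of change is least certain at this depth.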
